A study of Mus musculus with 4 samples.

Results

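Keratins are the proteins that build the intermediate filaments of epithelial cells, and their genes were measured here in the dorsal skin of mice after 30 days under TCQA (quinic acid that carries caffeoyl groups at positions 3, 4 and 5) or under its vehicle. The members are the genes whose symbol is Krt followed by a number and, in some, a letter, which leaves out the keratin-associated proteins (Krtap), and whose probe set names no other gene in the array annotation. This gave 41 keratins with 50 probe sets, among 17097 genes with 45037 probe sets in all. Each gene was represented by the probe set with the highest mean over the arrays, and 7 keratins had several. Another 15 keratins, Krt17, Krt72 and Krt85 among them, were not named singly in the annotation and were not analysed here.

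The study asked whether TCQA, a caffeoylquinic acid derivative applied to the skin, affects the genes of hair pigmentation. Male C3H mice, 8 weeks old at purchase, were shaved on the back under isoflurane, a step meant to bring resting (telogen) follicles into growth, and then received either Milli-Q water (control) or 1% TCQA on the shaved skin each day. Both groups therefore share the shaving, and no engineered allele is named for either. Total RNA of the treated skin was hybridized to 4 one-color Affymetrix mouse PM array strips, Control 1 and Control 2 for the vehicle and TCQA 1 and TCQA 2 for the treatment. The hair of the treated area had been plucked before the skin was collected, and as neither labels nor methods state how many animals an array stands for, the p-values refer only to array-to-array variation that could be technical. A value is the log2 signal of a probe set as deposited. The submitters' notes list RMA, a method of background correction, normalization and summary.

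Keratin filaments are made of pairs of a type I and a type II keratin, and each layer of skin uses its own pair. Krt5 and Krt14 form the filaments of the dividing basal layer, Krt1 and Krt10 replace them in the suprabasal layers, Krt6a, Krt6b and Krt16 belong to the outer root sheath and to stressed epidermis, and separate sets build the inner root sheath and the hair shaft. The hair sets are known to be active in the growing (anagen) follicle, while the epidermal sets are made in skin at all times. In whole skin, fewer cells of a layer and less keratin RNA per cell cannot be told apart.

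One array, Control 1, stood apart from the other 3, and every difference between the groups has to be read with this in view. Over the 41 keratins, Control 1 correlated with the other arrays at r = 0.33 to r = 0.35, whereas the other arrays correlated with each other at r = 0.93 to r = 0.96, a description over genes that share an array and are not replicates. The median absolute difference of a keratin between Control 1 and another array was 0.88 to 1.07 on the log2 scale, against 0.20 to 0.26 among Control 2, TCQA 1 and TCQA 2. Control 1 was the highest of the 4 arrays for 12 keratins and the lowest for 28, which is 29.3% and 68.3% of the family, where the same shares over all genes were 33.9% and 53.6%. The 4 arrays did not share 1 distribution of values, since 7.48% of genes reached a log2 value of 6 on Control 1 and 0.503% to 0.55% did on the others. Medians over every probe set were 2.30 (Control 1), 2.55 (Control 2), 2.54 (TCQA 1) and 2.49 (TCQA 2).

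The keratins of the basal layer were far higher on Control 1 than on any other array. Krt5, the type II keratin of basal keratinocytes, had log2 values of 9.83 (Control 1), 4.91 (Control 2), 5.02 (TCQA 1) and 4.52 (TCQA 2). Krt14, its type I partner, had 8.67 (Control 1), 2.86 (Control 2), 2.37 (TCQA 1) and 2.70 (TCQA 2). Krt15, found in basal cells and in the stem cells of the follicle bulge, had 9.46 (Control 1), 1.63 (Control 2), 1.82 (TCQA 1) and 1.86 (TCQA 2). For Krt5 the value of Control 2 lay between the TCQA values, for Krt15 it lay just below them, and for Krt14 both TCQA arrays were below both control arrays. The distance from Control 1 to the nearest other array was 4.81 for Krt5, 5.80 for Krt14 and 7.60 for Krt15, the largest of the family. On Control 2, TCQA 1 and TCQA 2 the Krt15 value was below the median of all probe sets of that array.

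In the comparison of the groups, Krt5 averaged 7.37 ± 3.48 (SD, n = 2) without and 4.77 ± 0.36 (SD, n = 2) with TCQA, a log2 fold change (TCQA minus control) of -2.61 (standard error, SE, 1.68, limma adjusted p = 0.923). The log2 fold change was -3.23 for Krt14 (SE 1.96, limma adjusted p = 0.923) and -3.70 for Krt15 (SE 2.63, limma adjusted p = 0.923). The SD of the control arrays, which reflects the distance of Control 1 from Control 2, was 4.10 for Krt14 and 5.54 for Krt15. Against Control 2 alone the TCQA mean differed by -0.15 for Krt5, -0.33 for Krt14 and 0.21 for Krt15. After a further quantile normalization, which gives the 4 arrays the same distribution, the log2 fold changes were -1.19 for Krt5, -2.11 for Krt14 and -2.55 for Krt15, and the distance of Control 1 from the nearest array was 2.06 for Krt5.

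**Figure D1:**
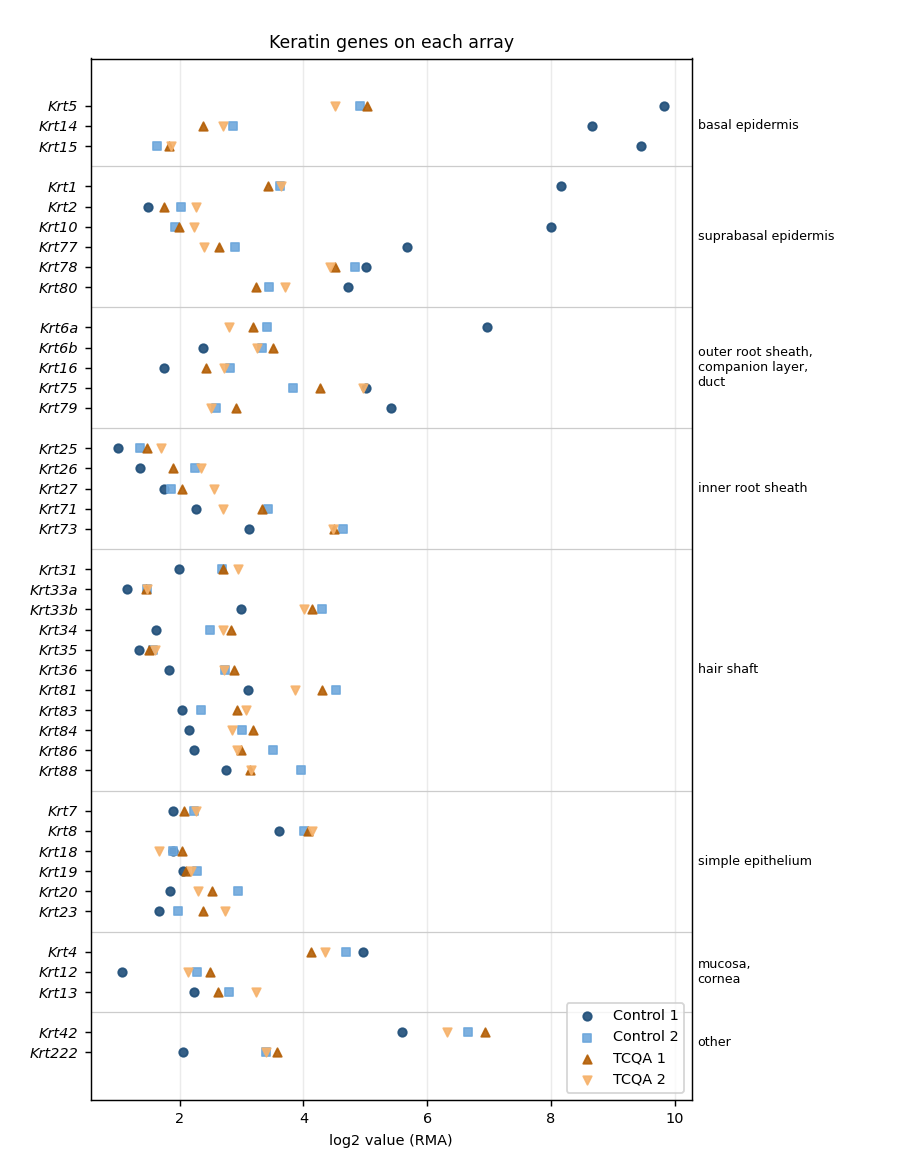
Log2 value (horizontal axis) of each of the 41 keratins, 1 row per gene, ordered by the layer or structure the keratin is known for. Each symbol is 1 array. Krt5, Krt14, Krt15, Krt1 and Krt10 lie at 7.99 to 9.83 for Control 1 but at 1.63 to 5.02 for the others, and in these deposited values Control 1 is the lowest array for each keratin of the inner root sheath and the hair shaft (after quantile normalization, all but Krt27 and Krt35).

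The suprabasal keratins divided into those that followed this pattern and those that did not. Krt1 had log2 values of 8.16 (Control 1), 3.63 (Control 2), 3.43 (TCQA 1) and 3.64 (TCQA 2). Krt10, the partner of Krt1, had 7.99 (Control 1), 1.93 (Control 2), 1.98 (TCQA 1) and 2.23 (TCQA 2). Krt77, a type II keratin related to Krt1, had 5.67 (Control 1), 2.89 (Control 2), 2.64 (TCQA 1) and 2.39 (TCQA 2). Control 1 was beyond the nearest other array by 4.52 for Krt1, by 5.76 for Krt10 and by 2.78 for Krt77, and only for Krt77 were both TCQA arrays below both control arrays. The log2 fold change was -2.36 for Krt1 (SE 1.55), -2.86 for Krt10 (SE 2.05) and -1.77 for Krt77 (SE 0.98), with an adjusted p = 0.923 from limma for each. With Control 2 as the only control they were -0.09, 0.18 and -0.38, and after quantile normalization they were -1.24, -1.88 and -1.26.

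Krt2, the keratin of the upper spinous layer that mice use mostly in ear, tail and sole skin, was low on every array, with log2 values of 1.48 (Control 1), 2.02 (Control 2), 1.74 (TCQA 1) and 2.25 (TCQA 2). It was the only measured epidermal keratin with its lowest value on Control 1, where quantile normalization puts TCQA 1 lowest instead, and its log2 fold change was 0.25 (SE 0.40, limma adjusted p = 0.929) or -0.02 against Control 2 alone. Krt78 had 5.01 (Control 1), 4.83 (Control 2), 4.51 (TCQA 1) and 4.43 (TCQA 2). Both TCQA arrays of Krt78 were below both control arrays, and the control arrays lay close together, unlike those of the keratins above. Its log2 fold change was -0.45 (SE 0.33, limma adjusted p = 0.923), and -0.36 against Control 2 alone. After quantile normalization Control 1 was the lowest array for Krt78 and the log2 fold change was 0.15. Krt80, expressed late in differentiation, had 4.72 (Control 1), 3.44 (Control 2), 3.22 (TCQA 1) and 3.70 (TCQA 2), so that Control 2 lay between the TCQA arrays, and its log2 fold change was -0.61 (SE 0.56, limma adjusted p = 0.923), 0.03 against Control 2 alone and -0.16 after quantile normalization.

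Promoter windows from 250 bases before to 50 bases after the RefSeq start (assembly GRCm38.p6) were at hand for 26 of the 41 keratins. The other 15, Krt1 and Krt15 among them, were missing from the set of windows used here, which does not mean that RefSeq lacks them. The arrays measure the transcript and not the promoter. The windows of 2 keratins with high Control 1 values (Krt5 and Krt10) and of 2 without (Krt71 of the inner root sheath and Krt31 of the hair shaft) are shown so that the core promoters of these sets can be set side by side. They lie at chr15:101712856-101713155 for Krt5, chr11:99389315-99389614 for Krt10, chr15:101743048-101743347 for Krt71 and chr11:100050502-100050801 for Krt31, each on the minus strand, and are written 5′ to 3′ with the match to TATAAA, or to ATAAA in Krt5, in capitals.
Krt5: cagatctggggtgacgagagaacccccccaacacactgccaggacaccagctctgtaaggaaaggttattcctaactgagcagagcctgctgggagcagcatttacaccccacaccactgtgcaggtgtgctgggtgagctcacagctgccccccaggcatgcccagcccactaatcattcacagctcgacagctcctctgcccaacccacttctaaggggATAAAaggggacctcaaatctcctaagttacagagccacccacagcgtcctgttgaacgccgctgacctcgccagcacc
Krt10: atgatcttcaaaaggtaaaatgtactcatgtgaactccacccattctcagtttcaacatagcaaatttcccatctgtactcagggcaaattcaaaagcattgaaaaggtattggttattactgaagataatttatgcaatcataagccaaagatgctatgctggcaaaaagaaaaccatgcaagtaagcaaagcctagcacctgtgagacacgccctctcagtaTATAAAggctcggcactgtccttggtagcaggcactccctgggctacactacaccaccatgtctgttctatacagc
Krt71: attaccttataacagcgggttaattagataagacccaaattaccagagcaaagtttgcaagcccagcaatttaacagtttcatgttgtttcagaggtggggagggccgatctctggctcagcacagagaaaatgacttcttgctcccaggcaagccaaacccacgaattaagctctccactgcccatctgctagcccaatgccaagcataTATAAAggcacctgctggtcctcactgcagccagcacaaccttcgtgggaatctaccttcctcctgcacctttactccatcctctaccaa
Krt31: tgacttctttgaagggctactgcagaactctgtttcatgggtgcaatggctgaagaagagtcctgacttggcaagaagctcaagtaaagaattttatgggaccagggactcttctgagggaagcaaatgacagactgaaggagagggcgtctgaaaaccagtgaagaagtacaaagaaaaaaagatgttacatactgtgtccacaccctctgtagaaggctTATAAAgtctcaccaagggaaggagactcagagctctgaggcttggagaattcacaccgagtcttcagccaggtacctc

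The match began 29 bases before the start in Krt5, 26 in Krt10, 40 in Krt71 and 29 in Krt31. On either strand, TATAAA was present in 14 of the 27 keratin windows (Krt13 has 2), which is 51.9%, and in 13.6% of all 32851 windows. Within the 50 bases before the start and on the strand of the gene, TATAAA stood in 11 keratin windows (40.7%) and in 2.63% of all windows. It was found there in 8 of 10 windows of the inner root sheath and hair shaft keratins and in 1 of 6 windows of the epidermal keratins, that of Krt10. The shorter ATAAA, which every TATAAA contains, stood there in 18 keratin windows (66.7%), and in 6.57% of all windows. These included 9 of 10 windows of the inner root sheath and hair shaft keratins and 3 of 6 epidermal ones (Krt5, Krt10 and Krt78). A match is a description of the letters and not evidence of a bound site.

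The keratins of the outer root sheath, the companion layer and the follicle duct did not share 1 pattern. Krt6a, a type II keratin of the companion layer and of wounded epidermis, had log2 values of 6.96 (Control 1), 3.41 (Control 2), 3.18 (TCQA 1) and 2.80 (TCQA 2), and Krt79, a keratin of the hair canal and the sebaceous duct, had 5.41 (Control 1), 2.58 (Control 2), 2.91 (TCQA 1) and 2.50 (TCQA 2). Krt6b, a close paralog of Krt6a, had 2.38 (Control 1), 3.34 (Control 2), 3.51 (TCQA 1) and 3.25 (TCQA 2), and Krt16, the type I partner of the Krt6 proteins, had 1.74 (Control 1), 2.81 (Control 2), 2.42 (TCQA 1) and 2.72 (TCQA 2). Control 1 was thus the highest array for Krt6a and Krt79 and the lowest for Krt6b and Krt16, also after quantile normalization. Because Krt6a and Krt6b have near-identical transcripts, signal from one can reach probes of the other, and the difference between them is uncertain. The log2 fold change was -2.20 for Krt6a (SE 1.23), -1.29 for Krt79 (SE 1.00), 0.52 for Krt6b (SE 0.46) and 0.29 for Krt16 (SE 0.49), with adjusted p-values of 0.923 to 0.929 from limma. Against Control 2 alone the values were -0.42, 0.12, 0.04 and -0.24, so that those of Krt79 and Krt16 changed sign, and quantile normalization gave -1.40 for Krt6a and -0.82 for Krt79.

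Krt75, the type II keratin of the companion layer, had the widest spread of the family among Control 2, TCQA 1 and TCQA 2. Its log2 values were 5.01 (Control 1), 3.84 (Control 2), 4.26 (TCQA 1) and 4.96 (TCQA 2). The control arrays enclosed both TCQA arrays. The log2 fold change was 0.19 (SE 0.55, limma adjusted p = 0.958) and 0.77 (SE 0.38) against Control 2 alone, the largest positive value of the family without Control 1. Without Control 2 it was -0.40, without TCQA 2 it was -0.16, and after quantile normalization it was 0.98. The TCQA arrays differed from each other by 0.69, the largest gap between them among the keratins.

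For all 5 measured keratins of the inner root sheath, the rigid sleeve that guides the growing hair, Control 1 was the lowest array. Krt25 had log2 values of 1.01 (Control 1), 1.35 (Control 2), 1.47 (TCQA 1) and 1.70 (TCQA 2). Krt27 had 1.75 (Control 1), 1.87 (Control 2), 2.03 (TCQA 1) and 2.55 (TCQA 2). For Krt25 and Krt27, both type I keratins, the TCQA arrays were above both control arrays, by small steps. Krt71, a type II keratin whose mutation gives curly coats, had 2.26 (Control 1), 3.43 (Control 2), 3.32 (TCQA 1) and 2.70 (TCQA 2), and Control 2 was its highest array. Krt73 had 3.11 (Control 1), 4.64 (Control 2), 4.49 (TCQA 1) and 4.47 (TCQA 2), with Control 1 lower than the nearest array by 1.36, and Krt26 ranged from 1.35 on Control 1 to 2.34 on TCQA 2. The log2 fold changes were 0.41 for Krt25 (SE 0.35), 0.48 for Krt27 (SE 0.36), 0.17 for Krt71 (SE 0.55), 0.60 for Krt73 (SE 0.60) and 0.32 for Krt26 (SE 0.46), and none passed limma. Against Control 2 alone, Krt25 at 0.23 and Krt27 at 0.42 kept their sign, whereas Krt71 at -0.42, Krt73 at -0.16 and Krt26 at -0.13 did not. After quantile normalization Control 1 was no longer the lowest array for Krt27.

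The hair shaft keratins lay between 1.14 (Krt33a, Control 1) and 4.52 (Krt81, Control 2). Control 1 was the lowest array for each of the 11 that were measured, with Krt35 as the exception after quantile normalization. Krt31, a type I keratin of the hair cortex, had log2 values of 1.99 (Control 1), 2.68 (Control 2), 2.70 (TCQA 1) and 2.95 (TCQA 2). Krt34, another cortex keratin, had 1.62 (Control 1), 2.48 (Control 2), 2.83 (TCQA 1) and 2.70 (TCQA 2). Krt83, a type II cortex keratin, had 2.03 (Control 1), 2.34 (Control 2), 2.92 (TCQA 1) and 3.07 (TCQA 2). In these 3 genes both TCQA arrays were above both control arrays, with log2 fold changes of 0.48 for Krt31 (SE 0.40), 0.71 for Krt34 (SE 0.43) and 0.81 for Krt83 (SE 0.34), each at an adjusted p = 0.923 from limma. The same values were 0.14, 0.28 and 0.66 against Control 2 alone. Krt83 had the largest positive log2 fold change of the family, and its unadjusted p was 0.067 in limma and 0.0412 with the unmoderated model, which is the analysis of variance that the study names. Its adjusted p in that model was 0.888.

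The other hair shaft keratins had overlapping groups. Krt33b had log2 values of 2.99 (Control 1), 4.30 (Control 2), 4.13 (TCQA 1) and 4.01 (TCQA 2), and its near-identical neighbor Krt33a had 1.14 (Control 1), 1.47 (Control 2), 1.45 (TCQA 1) and 1.47 (TCQA 2). Krt81, which shares much of its sequence with Krt83 and Krt86, had 3.11 (Control 1), 4.52 (Control 2), 4.30 (TCQA 1) and 3.86 (TCQA 2). Krt86 had 2.23 (Control 1), 3.51 (Control 2), 2.99 (TCQA 1) and 2.93 (TCQA 2). In Krt33b, Krt81 and Krt86 Control 2 was the highest array, above both TCQA arrays, an order not shared by Krt83. Because these transcripts are alike, probes of one may bind another, and a difference between them is uncertain. The log2 fold changes were 0.43 for Krt33b, 0.16 for Krt33a, 0.26 for Krt81 and 0.09 for Krt86, and against Control 2 alone they were -0.23, -0.01, -0.44 and -0.55. Krt35, a keratin of the hair matrix and cuticle, lay between 1.35 and 1.60 on the 4 arrays, with a log2 fold change of 0.09 that was -0.02 against Control 2 alone and -0.04 after quantile normalization.

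Krt88, grouped with the hair keratins, had log2 values of 2.75 (Control 1), 3.96 (Control 2), 3.14 (TCQA 1) and 3.15 (TCQA 2). It was the only hair shaft keratin with a negative log2 fold change, -0.20 (SE 0.51, limma adjusted p = 0.950), although those of Krt35 and Krt86 also fall below 0 after quantile normalization. Against Control 2 alone its value was -0.81 (SE 0.28), the most negative of the family, with an unadjusted p = 0.0325 from limma and an adjusted p of 1, where the single control array is assumed to vary like the TCQA arrays. Krt36 and Krt84 had log2 fold changes of 0.51 and 0.45, which were 0.07 and 0.01 against Control 2 alone. The 38 measured keratin-associated proteins, which cross-link the hair keratins, had a similar distribution over the arrays, with Control 1 lowest for 35 of them, a median log2 fold change of 0.30 and a median of -0.08 against Control 2 alone.

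**Figure D2:**
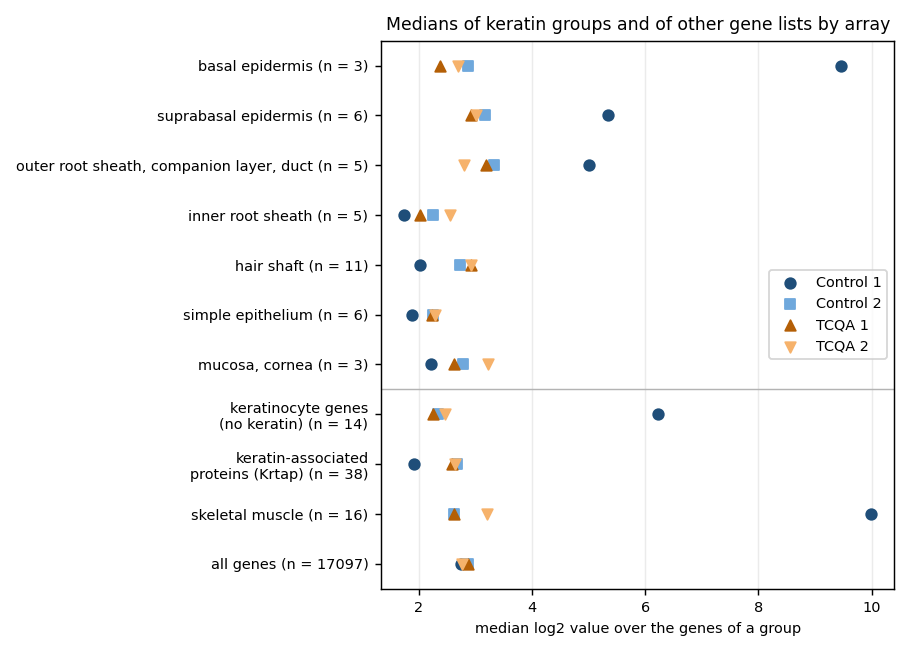
Median log2 value (horizontal axis) over the genes of each keratin group and, below the line, of other gene lists and of all genes, with the number of genes in parentheses. Each symbol is 1 array. The basal keratin median is 9.46 for Control 1 but 2.37 to 2.86 for the others, and the hair shaft median is 2.03 for Control 1 but 2.73 to 2.93 for the others.

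Keratins of simple epithelia, which line glands and internal organs, differed little between arrays for Krt8, Krt18 and Krt19. Krt8 had log2 values of 3.60 (Control 1), 4.02 (Control 2), 4.08 (TCQA 1) and 4.15 (TCQA 2), and its partner Krt18 had 1.89 (Control 1), 1.88 (Control 2), 2.04 (TCQA 1) and 1.67 (TCQA 2). Krt19, found in the follicle bulge and in sweat glands, had 2.05 (Control 1), 2.28 (Control 2), 2.10 (TCQA 1) and 2.17 (TCQA 2). Both TCQA arrays of Krt8 were above both control arrays, while Krt18 and Krt19 overlapped. The log2 fold changes were 0.31 for Krt8 (SE 0.35, and 0.63 after quantile normalization), -0.03 for Krt18 (SE 0.34) and -0.03 for Krt19 (SE 0.33). Krt23, a type I keratin, had 1.67 (Control 1), 1.97 (Control 2), 2.37 (TCQA 1) and 2.73 (TCQA 2), and both TCQA arrays were above both control arrays, at a log2 fold change of 0.73 (SE 0.35, limma adjusted p = 0.923) that was 0.58 against Control 2 alone. Krt7 lay between 1.89 and 2.27, and Krt20, a keratin of gut epithelium, between 1.83 and 2.94 with its highest value on Control 2.

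Keratins of mucosa and cornea gave values for 3 genes that dorsal skin is not known to use widely. Krt12, the keratin of the corneal epithelium, had log2 values of 1.07 (Control 1), 2.28 (Control 2), 2.48 (TCQA 1) and 2.13 (TCQA 2), and Krt13, of the oral mucosa, ranged from 2.23 on Control 1 to 3.22 on TCQA 2. Krt4, the partner of Krt13, had 4.97 (Control 1), 4.69 (Control 2), 4.12 (TCQA 1) and 4.35 (TCQA 2), with both TCQA arrays below both control arrays and a log2 fold change of -0.59 (SE 0.34, limma adjusted p = 0.923), -0.46 against Control 2 alone and -0.07 after quantile normalization. The Krt12 log2 fold change was 0.63 (SE 0.53, limma adjusted p = 0.923), or 0.02 against Control 2 alone. Krt42, a type I keratin of the nail, had 5.59 (Control 1), 6.66 (Control 2), 6.94 (TCQA 1) and 6.33 (TCQA 2). Krt222 had 2.05 (Control 1), 3.39 (Control 2), 3.57 (TCQA 1) and 3.39 (TCQA 2). Control 1 was the lowest array for both, and the log2 fold changes of 0.50 for Krt42 and 0.76 for Krt222 were -0.03 and 0.09 against Control 2 alone. After quantile normalization that of Krt42 was 1.46, above every other keratin. In the deposited values of Control 2, TCQA 1 and TCQA 2, Krt42 alone among the keratins reached a log2 value of 6. Its single probe set is of a kind that may bind other transcripts.

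Where a keratin had several probe sets, they gave the same order of arrays for Control 1 in 5 of 7 genes. The second Krt14 probe set had log2 values of 7.67 (Control 1), 2.28 (Control 2), 2.20 (TCQA 1) and 2.72 (TCQA 2), a log2 fold change of -2.52 against -3.23 with the first, but its groups overlapped. The 3 probe sets of Krt6a each had their highest value on Control 1, at 6.96, 5.06 and 3.84. Their log2 fold changes were -2.20, -0.67 and -0.97, and only the first had groups that did not overlap. Those of Krt12, Krt13 and Krt222 each had their lowest value on Control 1. Krt4 and Krt8 did not give 1 answer. The second Krt4 probe set had its lowest value, 2.75, on Control 1, with a log2 fold change of 0.30, and the second Krt8 probe set had its highest value, 1.99, on Control 1, with a log2 fold change of -0.21. The direction of these 2 keratins therefore depends on the probe set. The chosen probe sets of Krt4, Krt12, Krt13, Krt14 and Krt42, the second of Krt8 and of Krt13 and the third of Krt6a carry a suffix with which Affymetrix marks probes that may bind other transcripts.

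**Figure D3:**
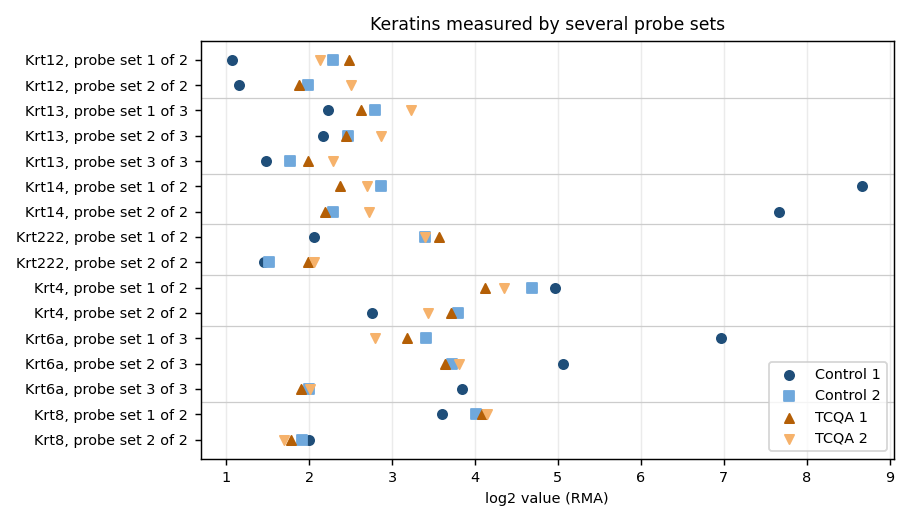
Log2 value (horizontal axis) of each probe set of the 7 keratins that have several, ordered within a gene by the mean over the arrays. Each symbol is 1 array. Both Krt14 and all 3 Krt6a probe sets are highest on Control 1, whereas the 2 probe sets of Krt4, and those of Krt8, place Control 1 at opposite ends.

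Over the family, no keratin passed limma at an adjusted p under 0.05, where 0% of the 45037 probe sets did. The unmoderated model called 0 probe sets as well, and 141 probe sets had an unadjusted p under 0.05 in limma. At an unadjusted p under 0.05 there were 0 keratins in limma, beside 0.357% of all genes, and 2 with the unmoderated model (Krt78 and Krt83), which is 4.88% beside 1.43% of all genes. The smallest p that an exact permutation test of 2 arrays against 2 can give is 0.333. At the thresholds the study names, 2-fold or more with p no higher than 0.05 before adjustment, 0 keratins were higher and 0 lower in limma, against 0.140% and 0.170% of all genes. A keratin that does not pass is not shown to be unchanged, since the distance between the control arrays widens the error of most. The log2 fold change was positive for 27 keratins and negative for 14. Over all 17097 genes it was positive for 9602 and negative for 7494. Without Control 1 it was positive for 18 keratins and negative for 23. With both control arrays the median over the keratins was 0.19, beside 0.08 over all genes. Both TCQA arrays were above both control arrays for 7 keratins, 17.1% of the family where all genes gave 16.0%, and below them for 5, 12.2% where all genes gave 13.6%.

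By group, the median log2 fold change was -3.23 for the basal keratins, -1.19 for the suprabasal ones (-0.70 after quantile normalization), 0.19 for the outer root sheath group (-0.55 with dim probe sets left out), 0.41 for the inner root sheath and 0.43 for the hair shaft. The medians for the simple epithelial and mucosal groups were 0.07 and 0.42. The 5 most negative values were those of Krt15, Krt14, Krt10, Krt5 and Krt1, and the 5 most positive were those of Krt83, Krt222, Krt23, Krt34 and Krt12. Against Control 2 alone, the group medians were -0.15 for the basal, -0.06 for the suprabasal, 0.04 for the outer root sheath, -0.13 for the inner root sheath and -0.01 for the hair shaft keratins.

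**Figure D4:**
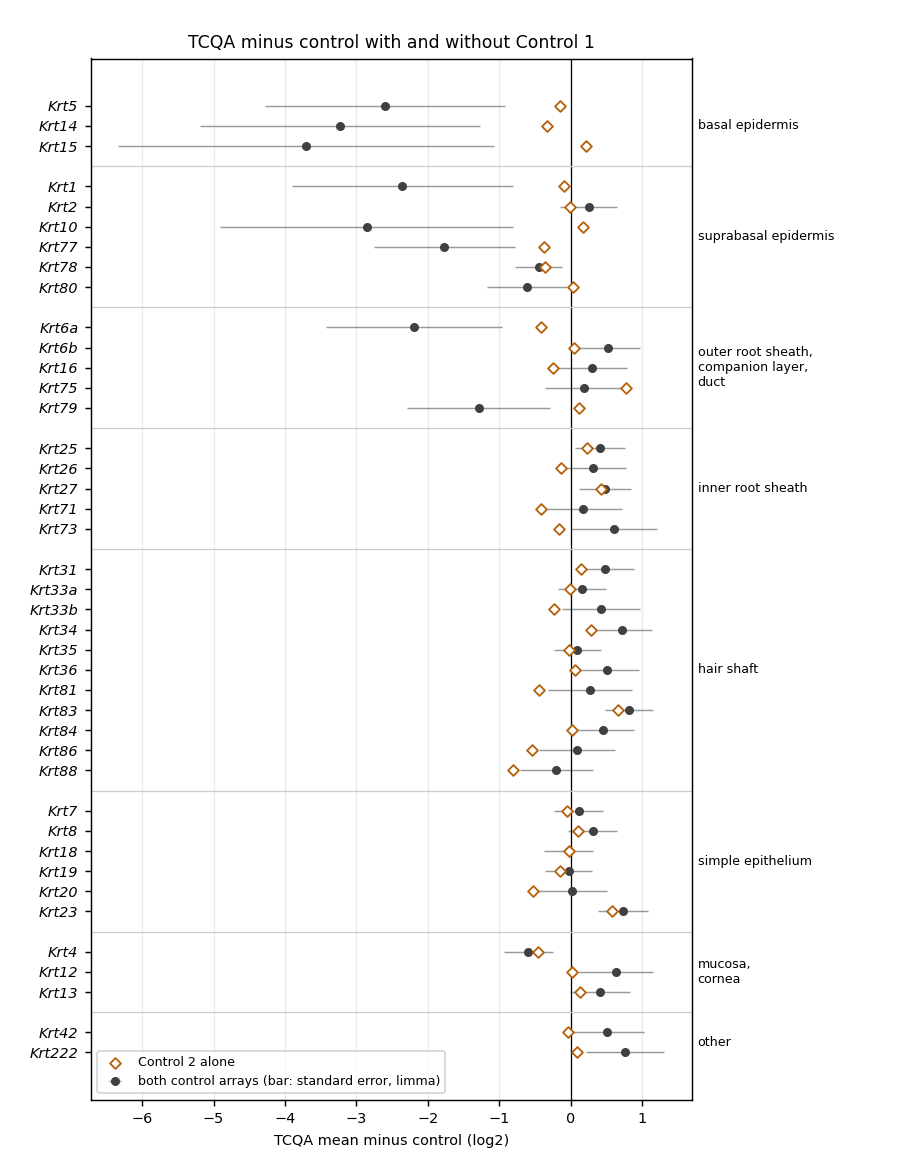
TCQA mean minus control on the log2 scale (horizontal axis) for each keratin. Filled circles use both control arrays with the standard error from limma as a bar, and open diamonds use Control 2 alone. The filled circles reach from -3.70 (Krt15) to 0.81 (Krt83), and the diamonds lie between -0.81 (Krt88) and 0.77 (Krt75).

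Without Control 1 the family was nearly level between TCQA and the remaining control array. Only 0.503% to 0.55% of genes reached a log2 value of 6 on Control 2, TCQA 1 and TCQA 2. Level values on these arrays therefore do not show that expression was equal. The 41 differences lay between -0.81 and 0.77, and 35 of them were under 0.5 in size, which is 85.4% beside 89.4% of all genes. Both TCQA arrays were above Control 2 for 10 keratins (24.4%, beside 26.3% of all genes), both were below it for 15 (36.6%, beside 34.9%), and for the rest Control 2 lay between them or level with one. Limma called 0 keratins without Control 1, without TCQA 1 or without TCQA 2, and 13 without Control 2, 8 of them lower (19.5%, beside 20.3% of all genes) and 5 higher with TCQA (12.2%, beside 8.40%). The lower ones were Krt5, Krt14, Krt15, Krt1, Krt10, Krt77, Krt6a and Krt79, the higher ones were Krt12, Krt222, Krt33b, Krt34 and Krt73, and the calls compare the TCQA arrays with Control 1 alone.

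Control 1 was the highest array for 13 of 14 keratinocyte genes that are no keratins, with Dsc1 lowest there, and their median log2 value was 6.23 (Control 1), 2.33 (Control 2), 2.26 (TCQA 1) and 2.47 (TCQA 2). Perp, a desmosome gene, had 9.34 (Control 1), 1.95 (Control 2), 1.58 (TCQA 1) and 1.94 (TCQA 2), and Col17a1, which anchors basal cells to the basement membrane, had 8.998 (Control 1), 1.95 (Control 2), 1.91 (TCQA 1) and 1.80 (TCQA 2). On Control 2, TCQA 1 and TCQA 2 the labelled tissue was therefore not marked by high values of Krt14, Krt15, Krt10, Perp or Col17a1, which lay near or below the median of all probe sets there, whereas Krt5 and Krt1 stayed above it. Lor, a cornified envelope gene, was low on each array, between 1.26 and 1.58.

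High values on Control 1 were also found for genes outside the keratins and the keratinocyte list. Control 1 was the highest array for 16 of 16 skeletal muscle genes, whose median was 9.99 there and 2.62 to 3.21 elsewhere, for 4 of 6 adipocyte genes, for 6 of 8 fibroblast genes and for 6 of 6 genes that all cells use. It was the highest for 1 of 8 melanocyte genes, 3 of 7 immune genes and 2 of 6 endothelial genes. A lead of at least 2 on the log2 scale over the next array was held by Control 1 in 8 keratins, 19.5% of the family, and in 12.0% of all genes, and after quantile normalization in 5 keratins, 12.2%, and in 5.94% of all genes. The genes that all cells use had a median log2 value of 9.17 (Control 1), 4.33 (Control 2), 4.07 (TCQA 1) and 3.52 (TCQA 2). Among them, Actb had 9.02 (Control 1), 2.58 (Control 2), 2.94 (TCQA 1) and 2.69 (TCQA 2). Gapdh had 11.02 (Control 1), 6.65 (Control 2), 6.32 (TCQA 1) and 6.37 (TCQA 2). The part that the makeup or the quality of the RNA has in these keratin values, on Control 1 or on the other arrays, was not tested.

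A list of partner genes was also read, of which some hold or bundle keratin filaments and others, such as Trex2 and Ivl, do not. Of its 15 measured genes, 10 were lower and 5 higher in the TCQA mean, with 0 past limma. Their median was -0.37, and 0.09 against Control 2 alone. Dsp, Perp and Lor stand both in this list and among the keratinocyte genes. Control 1 was the highest array for 10 of them. Plec, the plakin that links filaments to hemidesmosomes, had log2 values of 9.29 (Control 1), 3.86 (Control 2), 4.20 (TCQA 1) and 3.19 (TCQA 2). Dsp, the plakin that ties filaments to desmosomes, had 8.29 (Control 1), 1.93 (Control 2), 2.02 (TCQA 1) and 5.61 (TCQA 2), so that its TCQA arrays differed from each other by more than those of any keratin. Flg and Tchh, which bundle filaments in the granular layer and in the inner root sheath, stayed between 1.21 and 1.94 on all arrays. Of 9 measured transcription factors that control hair keratins, 6 were higher and 3 lower in the TCQA mean and 0 passed limma, with a median of 0.33 that was 0.13 against Control 2 alone. Both TCQA arrays were above both control arrays for 4 of the 9 and below them for 1, where all genes gave 16.0% and 13.6%. Foxn1, which hair keratin genes need for their expression, was among the 4, with 1.88 (Control 1), 2.76 (Control 2), 3.09 (TCQA 1) and 3.70 (TCQA 2). Its log2 fold change was 1.08 (limma adjusted p = 0.923), or 0.64 against Control 2 alone. Trps1 was the 1 below, with a log2 fold change of -0.71 (limma adjusted p = 0.923), or -0.49 against Control 2 alone. Gata3, a regulator of the inner root sheath, had 6.15 (Control 1), 1.79 (Control 2), 2.06 (TCQA 1) and 1.79 (TCQA 2), and its log2 fold change of -2.04 (limma adjusted p = 0.923) was 0.13 against Control 2 alone.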

How the data were processed

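Dorsal skin RNA was measured on 4 arrays, 2 per group. The deposited log2 signals (1 per probe set and array) are the authors' processed values, for which the submitters' notes list RMA, Expression Console and the Transcriptome Analysis Console of Affymetrix. Whether the arrays were normalized together is not given in the sources used here. Scanner files were not used.

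Of 45141 probe sets, 104 Affymetrix controls were left out. Probe sets were named by the platform annotation, and the symbols of all 41 keratins matched RefSeq (GRCm38.p6). The contrast of TCQA with control was fitted by limma 3.58.1 (R 4.3.3) on all 45037 probe sets without a brightness filter, which leaves 2 residual degrees of freedom, with p-values adjusted by the Benjamini-Hochberg method, and the step was tested on simulated data. Values against Control 2 alone leave out Control 1. The members, the gene lists and the rule for named genes were chosen with earlier results of these data known. Array values were given for a preset list of keratins and for the 5 largest log2 fold changes in each direction, and those of other keratins were added. The alternatives were each array left out, quantile normalization, median centring, a brightness filter, limma's trend and robust options, an unmoderated model and a replicate block. Further alternatives averaged the probe sets of a gene, or left out probe sets with an a, s or x suffix. No column was left unmapped, and the number of arrays limits the precision.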

Additional observations from a re-analysis of the deposited data

How the results depend on the processing

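No keratin passed limma's test in any alternative except without Control 2, where the control is a single array assumed to vary like the TCQA arrays. Leaving out 1 array at a time gave 0 to 10538 probe sets and 0 to 13 keratins past the test, 0 to 6 keratins higher and 0 to 9 lower at the thresholds of the study, all of those calls without Control 2, where 13.7% and 22.4% of all genes reached them (14.6% and 22% of the keratins). It gave 10 to 28 keratins apart on the TCQA-high side (24.4% to 68.3%, beside 26.3% to 54.7% of all genes) and 7 to 15 on the TCQA-low side (17.1% to 36.6%, beside 22% to 35.7%). Over the same omissions the median log2 fold change ranged from -0.023 to 0.54 for all keratins, -6.13 to -0.15 for basal, -2.21 to -0.055 for suprabasal, -0.40 to 0.39 for outer root sheath, -0.13 to 0.76 for inner root sheath, -0.0093 to 0.88 for hair shaft, -0.041 to 0.39 for simple epithelial, 0.023 to 0.70 for mucosal and 0.028 to 1.23 for other keratins. The keratins that changed sign when an array was left out ranged from -7.62 to 0.21 (Krt15), -5.89 to 0.18 (Krt10), -0.017 to 0.52 (Krt2), -0.24 to 0.83 (Krt16), -0.40 to 0.77 (Krt75), -2.70 to 0.12 (Krt79), -0.42 to 0.76 (Krt71), -0.0093 to 0.32 (Krt33a), -0.23 to 1.08 (Krt33b), -0.023 to 0.21 (Krt35), -0.44 to 0.97 (Krt81), -0.55 to 0.73 (Krt86), -0.22 to 0.16 (Krt18), -0.15 to 0.084 (Krt19), -0.16 to 1.37 (Krt73), -0.13 to 0.76 (Krt26), -0.03 to 1.04 (Krt42), -0.53 to 0.57 (Krt20), -0.06 to 0.27 (Krt7), -1.25 to 0.03 (Krt80) and -0.81 to 0.40 (Krt88).

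Quantile normalization left 11 keratins higher on TCQA 1 and TCQA 2 than on either control array (26.8%, beside 18.8% of all genes), turned the log2 fold changes of Krt35 to -0.037, of Krt86 to -0.012, of Krt78 to 0.15, of Krt20 to -0.11 and of Krt7 to -0.0079, and took the median to -0.70 for suprabasal, -0.058 for simple epithelial and 1.11 for other keratins. With probe sets under the median brightness left out, 26 keratins remained, 3 were apart on the TCQA-high side (11.5%, beside 12.8%), and the median was 0.31 for simple epithelial, -0.0895 for mucosal, -0.55 for outer root sheath and -1.77 for suprabasal keratins. Averaging the probe sets of a gene was 1 setting, and leaving out probe sets with an a, s or x suffix, with 36 keratins remaining, was another. In each, both TCQA arrays were below both control arrays for 3 keratins (7.32% and 8.33%, beside 13.6% and 12.6%). Median centring turned Krt20 to -0.066, and the suffix-free probe set of Krt4 gave 0.30. The cause of these shifts was not tested. With the replicate number as a block 0 probe sets and 0 keratins passed. The deviations of same-numbered arrays had a correlation of -0.124. As Control 1 stood apart, this value cannot show whether same-numbered arrays belong together. The crossed pairing, chosen after seeing the data, also gave 0 probe sets and 0 keratins. Many keratins lie near the median of all probe sets, where signal over background limits what can be read.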
